A study of Mus musculus with 100 samples.

Results

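Prrx1, Prrx2, Twist2, Runx1, Runx2, Osr1 and Meox2 are 7 transcription factors of mesenchymal cells, and they were chosen by gene symbol among the 25965 genes of the RNA-seq table. All 7 were found, each once. Their RNA was followed from female MEFs into the KSR-iPSCs, iPSC lines reprogrammed in medium with Knockout Serum Replacement, to see how deeply a fibroblast programme was silenced in each library. The cells were F1 hybrids of an i4F-BL6 mother, which carries a doxycycline-inducible polycistronic cassette of Oct4, Sox2, Klf4 and c-Myc, and a CAST father, so that the maternal allele is BL6 and the paternal allele CAST. MEFs were obtained from mid-gestation embryos. All iPSC lines carry the cassette and had received doxycycline during reprogramming, after which they were kept without it. Picked colonies were first plated on feeder cells, and the paper names no feeders for the later passages. F KSR2 and F KSR4 are female and M KSR3 and M KSR5 are male, and each line is 1 clone. TX 2i ESCs, the TX1072 line, are female ESCs of a BL6 mother and a CAST father, grown in 2i, that is with inhibitors of MEK and GSK3, and they were not reprogrammed. Each of the 6 groups had 3 libraries of separate biological replicates, and RNA of male MEFs was not analysed here. Both lines of a sex came from the MEFs of 1 embryo of that sex, so sex, embryo and clone cannot be told apart.

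Prrx1 and Prrx2 are paired-related homeobox factors of limb and craniofacial mesenchyme. Twist2, also called Dermo1, is a basic helix-loop-helix factor of dermal and bone precursors that pairs with E proteins. Runx1 and Runx2 bind DNA together with Cbfb; the first is known for blood formation and the second as the master factor of osteoblasts. Osr1 is a zinc finger factor of connective tissue and kidney precursors, and Meox2 a homeobox factor of somites and limb muscle. Fibroblasts of an embryo keep many of these regulators, and reprogramming has to shut them off while the pluripotency network is switched on.

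The files give the genes on GRCm38. Prrx1 (ENSMUSG00000026586) lies on the minus strand of chromosome 1 from 163245116 to 163313710, and Twist2 (ENSMUSG00000007805) on the plus strand of the same chromosome from 91801461 to 91848028. Prrx2 (ENSMUSG00000039476) lies on chromosome 2 from 30834972 to 30881241, plus strand. Osr1 (ENSMUSG00000048387) and Meox2 (ENSMUSG00000036144) share chromosome 12, plus strand, from 9574442 to 9581499 and from 37108540 to 37181785. Runx1 (ENSMUSG00000022952) lies on chromosome 16 from 92601467 to 92826066 and Runx2 (ENSMUSG00000039153) on chromosome 17 from 44495987 to 44814797, both on the minus strand. All are protein coding in GENCODE vM21. That annotation also places short non-coding genes on the same strand inside Prrx1 (Gm26523 and Gm37644), Twist2 (Gm29101), Runx2 (n-R5s27) and Meox2 (Gm48617). None of these has a row of its own in the table, so a few reads at those genes may belong to them.

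RefSeq promoter windows on GRCm38.p6, from 250 bases before to 50 bases after a start, were at hand for 6 of the 7 genes, 7 windows in all since Runx1 has 2 starts. Only bases that lie in no GENCODE exon are printed, 5′ to 3′ on the strand of the gene, with CpG dinucleotides in capitals. Prrx1 is shown because it had the most reads of the 7 genes in MEFs and few or none in most pluripotent libraries, and both starts of Runx1 because this gene kept the most RNA in an iPSC line. The Prrx1 stretch is chr1:163313711-163313900, and the Runx1 stretches are chr16:92826150-92826324 before the distal start and chr16:92697330-92697579 before the proximal start.
Prrx1: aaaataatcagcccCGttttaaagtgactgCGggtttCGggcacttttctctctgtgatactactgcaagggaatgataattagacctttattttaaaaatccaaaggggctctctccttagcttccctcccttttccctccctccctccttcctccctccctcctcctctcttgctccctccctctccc
Runx1 distal: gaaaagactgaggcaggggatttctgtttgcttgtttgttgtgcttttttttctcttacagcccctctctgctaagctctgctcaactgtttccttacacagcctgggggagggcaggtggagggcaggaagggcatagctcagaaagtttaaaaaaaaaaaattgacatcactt
Runx1 proximal: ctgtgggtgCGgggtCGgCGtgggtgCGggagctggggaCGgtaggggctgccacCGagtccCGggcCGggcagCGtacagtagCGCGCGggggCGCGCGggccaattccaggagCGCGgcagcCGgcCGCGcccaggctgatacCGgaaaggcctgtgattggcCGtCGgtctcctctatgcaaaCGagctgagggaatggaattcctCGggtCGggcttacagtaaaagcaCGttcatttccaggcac
The windows of 300 bases fell on both sides of the 32851 windows of the table, whose median was 7 CpGs. Those of Runx1 (proximal start) held 35 CpGs, of Prrx2 28, of Twist2 25 and of Meox2 12, whereas those of Prrx1, Runx1 (distal start) and Runx2 held 6, 2 and 2. The motif letters were read on both strands. The E-box core CANNTG, present in 72.3% of all windows, was in those of Runx1 (distal), Runx2 and Meox2, and the RUNX letters TGTGGT, in 16.8% of all windows, were in the same 3. TGCGGT, in 6.45% of windows, was found only at Runx2, the homeodomain core TAATTA, in 5.29%, only at Prrx1, and TATAAA, in 13.6%, only at Meox2. No CpG count or motif was thus shared by all of the genes.

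The libraries held 13183036 to 17921280 reads assigned to genes (median 15722711). The values are log2 RPM, reads scaled to a common library total, without correction for length. A gene without reads is listed at the value of 0.9 read, and a single read stands at -4.29 to -3.89. Read numbers given here were recovered from these values, and low ones were mostly odd, so they may not count independent reads. The labels were checked against marker genes. The summed level of 8 pluripotency genes was 1.40 to 2.29 RPM in female MEFs, where Pou5f1, Zfp42, Dppa5a and Tdgf1 had no read, and 3674 to 7824 RPM in the pluripotent libraries. The summed level of 15 fibroblast genes was 42857 to 54443 RPM in MEFs and 747 to 2008 RPM in the pluripotent libraries. Of the latter, M KSR5 replicate 3 stood apart for several of the genes described here, and results are given with and without it. In bulk RNA, fewer cells of a type and less RNA per cell cannot be told apart.

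In female MEFs every one of the 7 genes was well read. Prrx1 had 7636, 7356 and 6488 reads in the 3 libraries and a mean of 8.61 ± 0.23 log2 RPM (SD, n = 3). Prrx2 had 2513, 1848 and 2275 reads, or 6.91 ± 0.35 log2 RPM (SD, n = 3). The pair of Prrx genes thus held the most reads. Twist2 had 782, 957 and 1130 reads, Runx1 825, 1343 and 1198, and Runx2 561, 809 and 671. Osr1 had 1001, 372 and 457 reads, with replicate 1 well above the others, and Meox2 had 156, 95 and 114. Meox2 was thus the lowest of the 7 in each MEF library.

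Per kilobase of merged GENCODE exons the order changed. Prrx2, with 1961 exon bases, stood first at 62.4 ± 15.2 RPM per kb (SD, n = 3), and its lowest library (48.0) was above the highest of Prrx1 (42.1). Prrx1, with 11066 exon bases, followed at 35.6 ± 5.9 RPM per kb (SD, n = 3). Osr1 came next at 16.8 ± 11.1 and Twist2 at 16.4 ± 2.0 RPM per kb, and these neighbours overlapped. Runx1 stood at 5.04 ± 0.77, Runx2 at 4.18 ± 0.43 and Meox2 at 2.88 ± 1.03 RPM per kb, and the libraries of each overlapped with those of the next.

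All 7 genes were lower in the pluripotent groups than in MEFs, and the depth differed between genes. In the fit of 18 libraries (limma on the log2 values, Benjamini-Hochberg adjustment over 14632 genes), each of the 7 fell in the mean of the 5 pluripotent groups, where 32.5% of all genes tested were called lower. Each also fell in every single group, with 29.0% of genes called lower for TX 2i ESCs, 29.0% for F KSR2, 31.2% for F KSR4, 28.9% for M KSR5 and 28.2% for M KSR3. Prrx1, Twist2, Runx2, Osr1 and Meox2 passed the filter on low values through their MEF libraries, so the count of 7 is not evidence in itself and the sizes below carry the result. The median log2 change of all genes tested was 0.21. Fitted changes place 0 reads at 0.9 read and are no bounds, and folds from the reads are therefore given beside them. The comparisons with MEFs share the MEF libraries.

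Prrx1 fell from the highest read number of the 7 in MEFs to few or no reads. The 3 libraries had 5, 3 and 3 reads in the F KSR2 libraries, 1, 5 and 7 in those of F KSR4, 1, 0 and 0 in M KSR3, 0, 0 and 30 for M KSR5, and 0 in each TX 2i ESC library. Only the 30 reads of M KSR5 replicate 3 stood clear of the others, and no pluripotent library reached the MEF range. Prrx1 fell by 11.78 on the log2 scale (SE 0.78, limma adjusted p = 3.84e-10) in the pluripotent mean. Pooled over replicates it was at 0.0532% of the MEF level in F KSR2 (95% exact Poisson interval 0.0266 to 0.0952%) and at 0.0653% in F KSR4 (0.0348 to 0.112%). In M KSR3, with 1 read, it was at 0.00468% (0.000119 to 0.0261%). Against TX 2i ESCs, Prrx1 in MEFs was at least 6798-fold higher, with a floor of 3 reads over the group. M KSR5 was at 0.144% (0.0974 to 0.206%) with all replicates, and without replicate 3 it had no read, so that MEFs were at least 4677-fold higher. Poisson intervals cover counting error only and take the recovered reads as independent, which they may not be.

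Its paralog Prrx2 behaved differently and stayed detectable in all 15 pluripotent libraries. The reads were 38, 25 and 49 in the F KSR2 libraries, 15, 66 and 40 in those of F KSR4, 20, 60 and 38 in M KSR3, 21, 35 and 50 for M KSR5, and 32, 41 and 15 in TX 2i ESCs. The ranges of all 5 groups overlapped and lay far below those of MEFs. Prrx2 fell by 6.0 on the log2 scale (SE 0.43, limma adjusted p = 9.88e-10) in the pluripotent mean. The pooled level ran from 1.40% of MEFs in TX 2i ESCs (95% exact Poisson interval 1.12 to 1.72%) to 1.97% in F KSR4 (1.63 to 2.35%). The group means fell in the order F KSR2 (1.03 log2 RPM), then F KSR4 (1.01), then M KSR3 (0.97), then M KSR5 (0.91) and last TX 2i ESCs (0.64), and each neighbour overlapped with the next. A difference between lines was not detectable for this gene.

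Twist2 was nearly lost. It had 1, 0 and 0 reads in the F KSR2 libraries, 5, 5 and 3 in those of F KSR4, 1, 3 and 1 in M KSR3, 3, 3 and 5 for M KSR5, and 0, 1 and 0 in TX 2i ESCs. F KSR4 and M KSR5 had at least 3 reads in every library, and F KSR2 and TX 2i ESCs at most 1. Twist2 fell by 8.98 on the log2 scale (SE 0.36, limma adjusted p = 4.13e-13). The pooled level was 0.489% of MEFs in F KSR4 (95% exact Poisson interval 0.260 to 0.836%) and 0.0362% in F KSR2 (0.000917 to 0.202%).

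**Figure D1:**
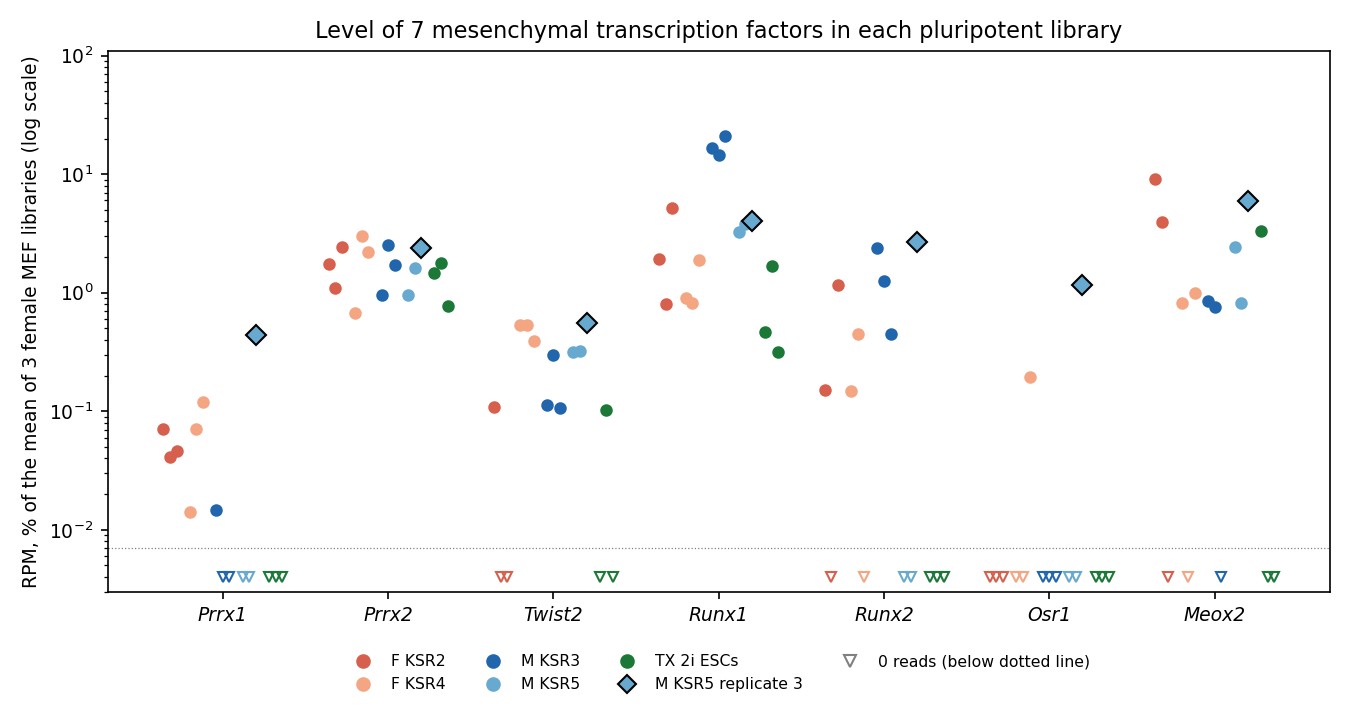
Level of each gene in each of the 15 pluripotent libraries, as a percentage of its mean RPM in 3 female MEF libraries, on a log axis; open triangles below the dotted line are libraries with 0 reads, and the diamond is M KSR5 replicate 3. Runx1 in M KSR3 reached 14.4 to 21.1%, Prrx2 lay between 0.676 and 2.98% everywhere, and Prrx1 stayed at or under 0.441%.

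Runx1 in M KSR3 kept the largest share of its MEF level among the 7 genes and 5 groups. It had 21, 9 and 52 reads in the F KSR2 libraries, 10, 9 and 17 in those of F KSR4, 174, 170 and 230 in M KSR3, 36, 41 and 42 for M KSR5, and 5, 19 and 3 in TX 2i ESCs. The 3 M KSR3 libraries lay above every other pluripotent library and below every MEF library. Runx1 fell by 5.34 on the log2 scale (SE 0.48, limma adjusted p = 2.21e-08) in the pluripotent mean, but by 2.53 (SE 0.63, limma adjusted p = 0.00174) in M KSR3. The pooled level was 17.2% of MEFs in M KSR3 (95% exact Poisson interval 15.8 to 18.6%), 3.66% in M KSR5 (3.03 to 4.37%) and 2.53% in F KSR2 (2.01 to 3.14%). It was lower still in F KSR4, at 1.15% (0.808 to 1.60%), and in the ESCs, at 0.845% (0.557 to 1.23%). The groups from M KSR5 downwards overlapped each with the next. Within F KSR2 the replicates ran from 9 to 52 reads, and its SD of 1.36 on the log2 scale was the largest of the 4 lines.

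Runx2 was much lower. It had 1, 0 and 7 reads in the F KSR2 libraries, 1, 3 and 0 in those of F KSR4, 15, 9 and 3 in M KSR3, 0, 0 and 17 for M KSR5, and 0 in each TX 2i ESC library. M KSR3 was the only group with 3 or more reads in every library, and the highest single library was M KSR5 replicate 3. Runx2 fell by 8.26 on the log2 scale (SE 0.78, limma adjusted p = 3.92e-08). It was at 1.33% of the MEF level in M KSR3 (95% exact Poisson interval 0.877 to 1.94%). MEFs were at least 646-fold higher than TX 2i ESCs, with a floor of 3 reads over the group.

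Osr1 was absent from 13 of the 15 pluripotent libraries at this depth. The exceptions were 1 read in F KSR4 replicate 3 and 7 reads in M KSR5 replicate 3. Osr1 fell by 9.00 on the log2 scale (SE 0.52, limma adjusted p = 5.23e-11). With a floor of 3 reads over the group, MEFs were at least 587-fold higher than F KSR2, at least 606-fold higher than M KSR3 and at least 579-fold higher than TX 2i ESCs.

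Meox2 was low throughout. It had 11, 5 and 0 reads in the F KSR2 libraries, 1, 0 and 1 in those of F KSR4, 1, 1 and 0 in M KSR3, 3, 1 and 7 for M KSR5, and 4, 0 and 0 in TX 2i ESCs. Libraries of the 5 groups overlapped, and all were below the MEF libraries. Meox2 fell by 6.08 on the log2 scale (SE 0.64, limma adjusted p = 1.47e-07). The pooled level was 4.56% of MEFs in F KSR2 (95% exact Poisson interval 2.60 to 7.40%), the highest group, and 1.15% in TX 2i ESCs (0.314 to 2.96%). Since MEFs themselves had 95 to 156 reads, the 3 reads that a count of 0 allows limit how deep a decrease could be seen.

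**Figure D2:**
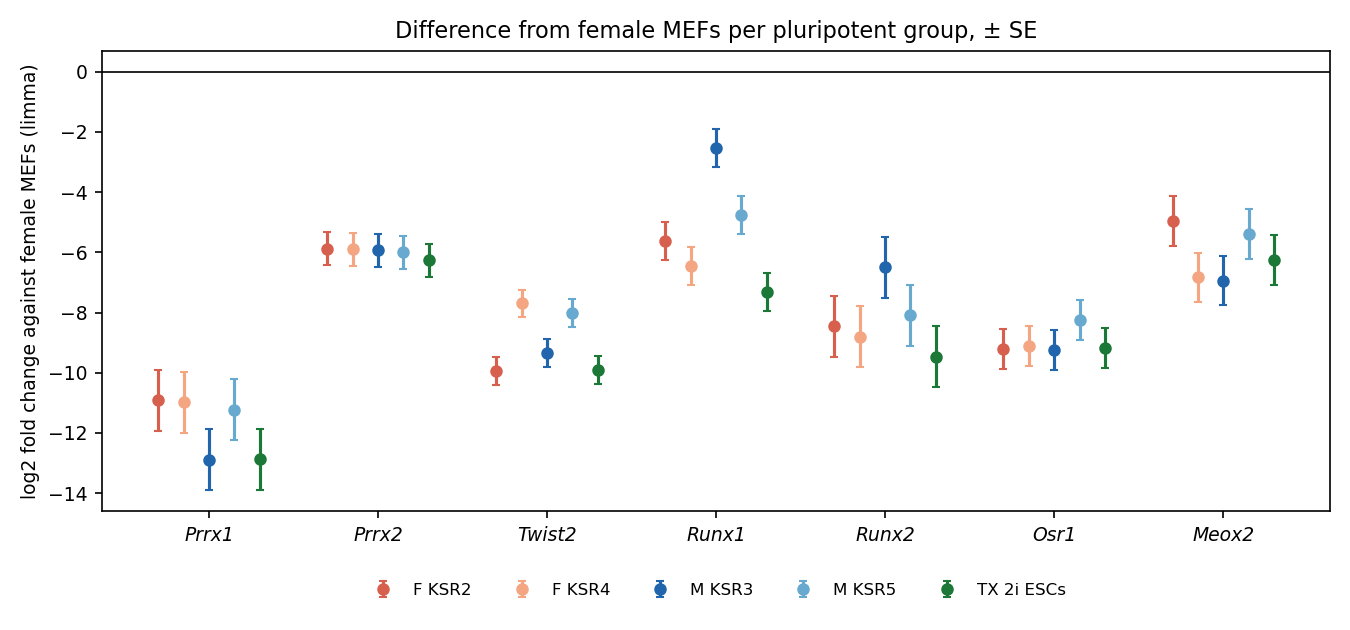
Fitted log2 change of each gene in each pluripotent group against female MEFs (limma, points with SE, n = 3 libraries per group). All 35 points lie below 0, from -2.53 for Runx1 in M KSR3 to -12.90 for Prrx1 in M KSR3; genes without reads are placed at 0.9 read.

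KSR-iPSCs were next set against TX 2i ESCs, which differ from them in origin, culture and reprogramming at once. Runx1 was higher in KSR-iPSCs by 2.47 on the log2 scale (SE 0.49, limma adjusted p = 0.0017), and the call held in every alternative run. No run of this comparison left out a whole KSR-iPSC line. The lines did not share in this alike, with group means of 3.38 log2 RPM in M KSR3, 1.16 for M KSR5, 0.28 for F KSR2, -0.56 for F KSR4 and -1.40 for TX 2i ESCs. Libraries of both female lines, F KSR2 and F KSR4, overlapped with those of the ESCs, and those of the male lines did not. Without TX 2i ESC replicate 2 the difference was 3.18. Twist2 was higher by 1.16 (SE 0.36, limma adjusted p = 0.0285), on 0 to 5 reads against 0 or 1. These were 2 of the 7 genes, while 11% of all genes tested were called higher in KSR-iPSCs. The Twist2 call was lost with log2(RPM + 1), without a filter, with limma-voom and without any 1 of the TX 2i ESC libraries (adjusted p from 0.022 to 0.392 over the alternatives). The other 5 genes did not pass, with differences of 1.37 (SE 0.80) for Prrx1, 0.34 (SE 0.44) for Prrx2, 1.51 (SE 0.80) for Runx2, 0.24 (SE 0.53) for Osr1 and 0.22 (SE 0.65) for Meox2 on the log2 scale. In TX 2i ESCs the maternal share of allelic reads of chromosome 16, which holds Runx1, was 34.9 ± 0.1% (SD, n = 3), against 52.2 to 52.7% in the means of the KSR-iPSC lines. Its part in the Runx1 result was not tested.

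Between female and male KSR-iPSCs, Runx1 was called in the main fit, but not in every alternative. M KSR5, with 36 to 42 Runx1 reads, lay within the female range. The female libraries held 9 to 52 Runx1 reads and the male libraries 36 to 230, so the sexes overlapped. The log2 difference of Runx1, female minus male, was -2.41 (SE 0.58, limma adjusted p = 0.0348 over 13609 genes), where 1.28% of all genes tested were called lower. The call was lost without a filter, with limma-voom, with the line as a random effect and without each of 7 libraries, among them all 3 of M KSR3. Prrx2, the other gene above the filter, differed by 0.08 (SE 0.42, limma adjusted p = 0.94). The remaining 5 genes were too low in KSR-iPSCs to be tested. Each sex is represented by 2 clones only.

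Pairs of lines were compared after the values had been seen, and both Runx1 calls were against M KSR3. The log2 difference of Runx1, F KSR2 minus M KSR3, was -3.10 (SE 0.63, limma adjusted p = 0.00472), the only call among the 7 genes, where 10.7% of all genes were called. F KSR4 minus M KSR3 gave -3.93 (SE 0.63, limma adjusted p = 0.000852); Twist2 was called there too, at 1.65 higher in F KSR4, and 13.1% of all genes were called. Between the 2 male lines 0 of the 7 genes passed limma and 2 had an unadjusted p under 0.05, while 4.48% of all genes were called. Runx1 was 2.22 higher in M KSR3 than in M KSR5 there (SE 0.63, limma adjusted p = 0.0523), without overlap of the libraries, and it was 1 gene that passed with limma-voom. Between F KSR4 and M KSR5 0 genes passed limma or limma-voom and 1 had an unadjusted p under 0.05, with 2.34% of all genes called. The log2 difference of Twist2 was -2.24 for F KSR2 minus F KSR4 (SE 0.46, limma adjusted p = 0.023; 1.14% of all genes called) and -1.92 for F KSR2 minus M KSR5 (SE 0.46, limma adjusted p = 0.0295; 2.82% of all genes called). These Twist2 calls rest on 0 to 5 reads a library, and limma-voom made none of them.

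**Figure D3:**
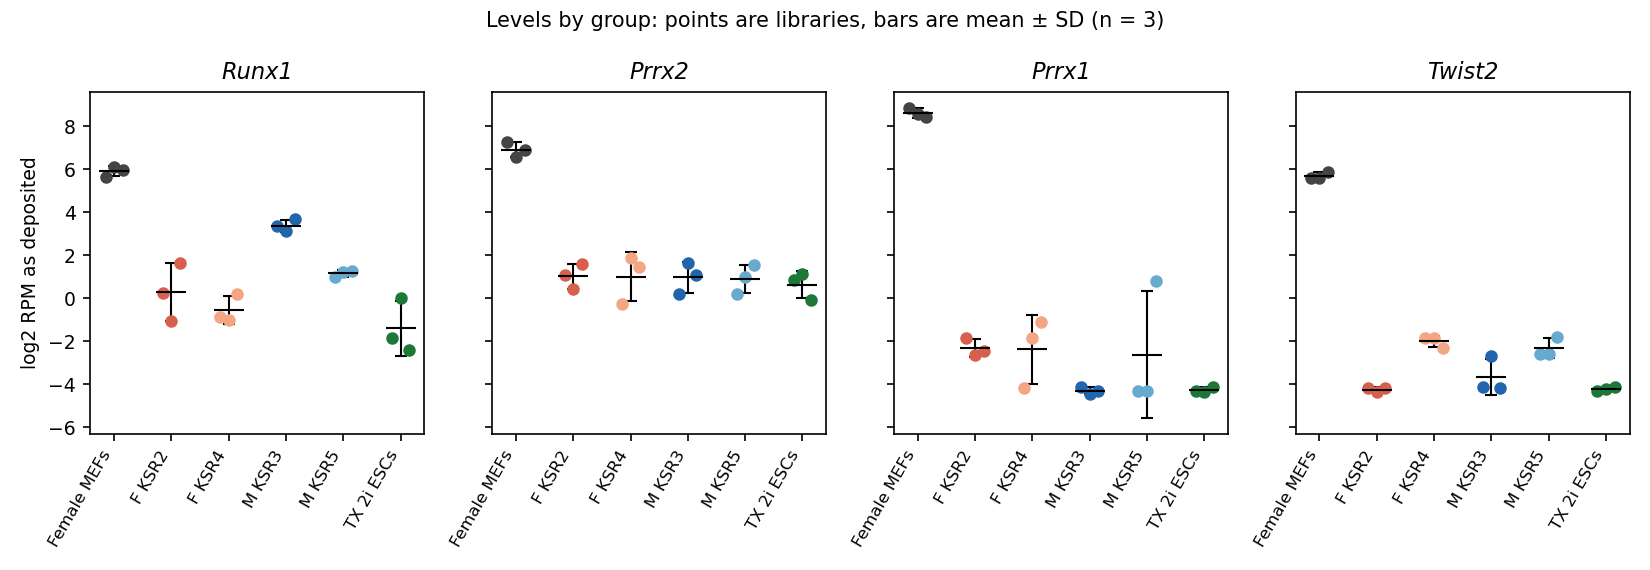
Deposited log2 RPM of Runx1, Prrx2, Prrx1 and Twist2 in each library (points) with mean ± SD of 3 libraries a group; 0 reads are listed at 0.9 read, near -4.3. Runx1 in M KSR3 stands between MEFs and all other pluripotent groups, Prrx2 is level across pluripotent groups, and a single M KSR5 library lifts Prrx1.

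M KSR3 also stood above the other lines for some genes of primitive endoderm, the extraembryonic layer that forms beside pluripotent cells. The summed level of Gata6, Gata4, Sox17, Dab2 and Sox7 was 165 to 200 RPM in its libraries and 25.3 to 80.3 RPM in the other KSR-iPSC lines. That sum was 12.1 to 24.8 RPM in TX 2i ESCs but 125 to 177 RPM in female MEFs, where Dab2 alone was at 114 to 160 RPM. Gata6, which specifies that layer, was at 38.1 to 46.8 RPM in M KSR3 against 2.43 to 10.2 RPM in those lines, and Gata4 at 27.3 to 36.3 against 3.41 to 11.6 RPM. Dab2 was at 75.2 to 90.2 RPM in M KSR3 and at most 42.8 RPM in those lines. Sox17, at 7.80 to 12.0 RPM in M KSR3, and Sox7, at 10.4 to 14.8 RPM, overlapped with the other lines, which reached 10.1 and 15.2 RPM in F KSR2. Pdgfra, a receptor found on primitive endoderm and on fibroblasts alike, was at 30.8 to 31.9 RPM in M KSR3 and at 1.76 to 7.81 RPM in the other lines. Whether M KSR3 held primitive endoderm cells, and their part in the Runx1 level, was not tested. Fibroblast genes as a list were not raised in M KSR3, whose median stood at 0.0524 to 0.248% of MEFs across its libraries, against 0.141 to 0.367% in the other lines without M KSR5 replicate 3.

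M KSR5 replicate 3 was compared with the other 11 KSR-iPSC libraries. The median of the 7 genes in it was 2.36% of their MEF level, against 0.0408 to 0.857% in the other 11. It was the highest of the 15 pluripotent libraries for 4 of the 7 genes. Prrx1 had 30 reads against at most 7, Runx2 17 against at most 15, and Osr1 7 against at most 1, while Twist2 had 5 reads, as many as 2 F KSR4 libraries. Prrx2, Runx1 and Meox2 were within the range of the other libraries. Leaving the library out moved the log2 change of M KSR5 against MEFs from -11.22 to -12.93 for Prrx1, from -8.09 to -9.52 for Runx2 and from -8.24 to -9.24 for Osr1, and all 7 genes stayed called.

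Fibroblast genes moved with it in part. The median of the 15 fibroblast markers was 0.844% of the MEF level in this library and 0.0524 to 0.367% in the other 11, and it was the highest of the 15 pluripotent libraries for 7 of the 15 markers. Lox, the collagen cross-linking enzyme, had 898 reads against at most 82, and Col3a1 428 against at most 85. Col1a1 was at 0.477% and Col1a2 at 0.615% of the MEF level, against at most 0.236 and 0.249%. Lum had 0 reads. The collagen genes Col5a1 and Col6a1, and Fn1, Vim, Thy1, Pdgfra and Pdgfrb, were not above the highest of the other 11 libraries. The summed fibroblast level, 1310 RPM, lay within the 747 to 2008 RPM of the other 11 libraries. All 8 pluripotency genes were detected in the library, and their sum of 5992 RPM was above the 3674 to 5629 RPM of the other 11. The origin of the fibroblast RNA was not tested.

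**Figure D4:**
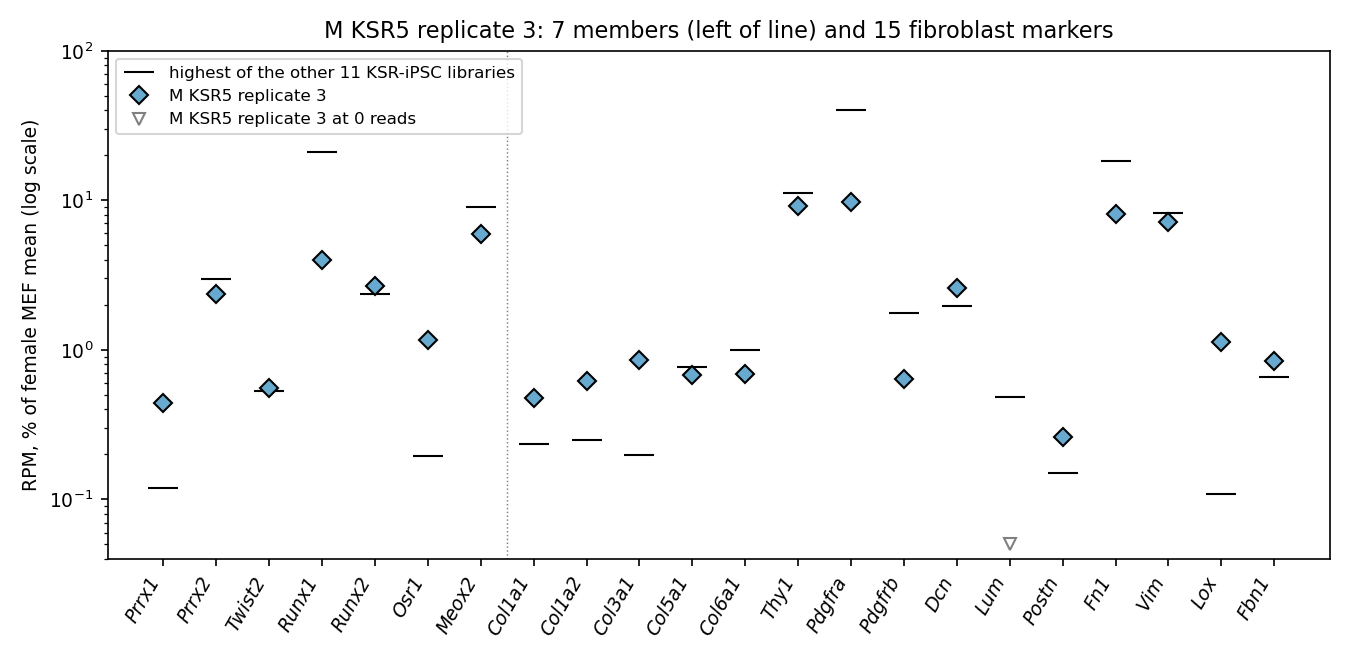
RPM in M KSR5 replicate 3 as a percentage of the MEF mean, log axis, for the 7 genes (left) and 15 fibroblast markers (right), with a dash at the highest of the other 11 KSR-iPSC libraries. Prrx1, Osr1, Col3a1 and Lox lie well above the dash; Runx1, Fn1 and Pdgfra lie below it, and Lum had 0 reads.

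Allelic reads, which the choice of genes did not use, gave the share of each parental copy. In MEFs the maternal share of Prrx1 was 56.7 ± 0.4% (SD, n = 3; 2744 to 3205 allelic reads a library), above the 50.9 ± 0.6% of chromosome 1 in all 3 libraries. That of Prrx2 was 42.3 ± 3.6% (SD, n = 3; 726 to 1022 allelic reads), below the 51.3 ± 0.1% of chromosome 2 in all 3. The Prrx genes thus leaned to opposite alleles, each by less than 15 percentage points. The maternal allele was always BL6 and the paternal one CAST, so parent of origin and strain cannot be told apart. Twist2 stood at 52.7 ± 2.4%, Runx1 at 51.6 ± 3.8%, Runx2 at 58.3 ± 1.8%, Osr1 at 45.0 ± 8.6% and Meox2 at 67.9 ± 12.7% (SD, n = 3 each). The 95% Wilson interval of every MEF library included its chromosome mean for Twist2, Runx1 and Runx2. In Osr1 the library with the most reads leaned to the maternal allele (54.8%) and the other 2 to the paternal one (40.2 and 39.8%). How far mapping to either genome sets such shares was not tested.

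**Figure D5:**
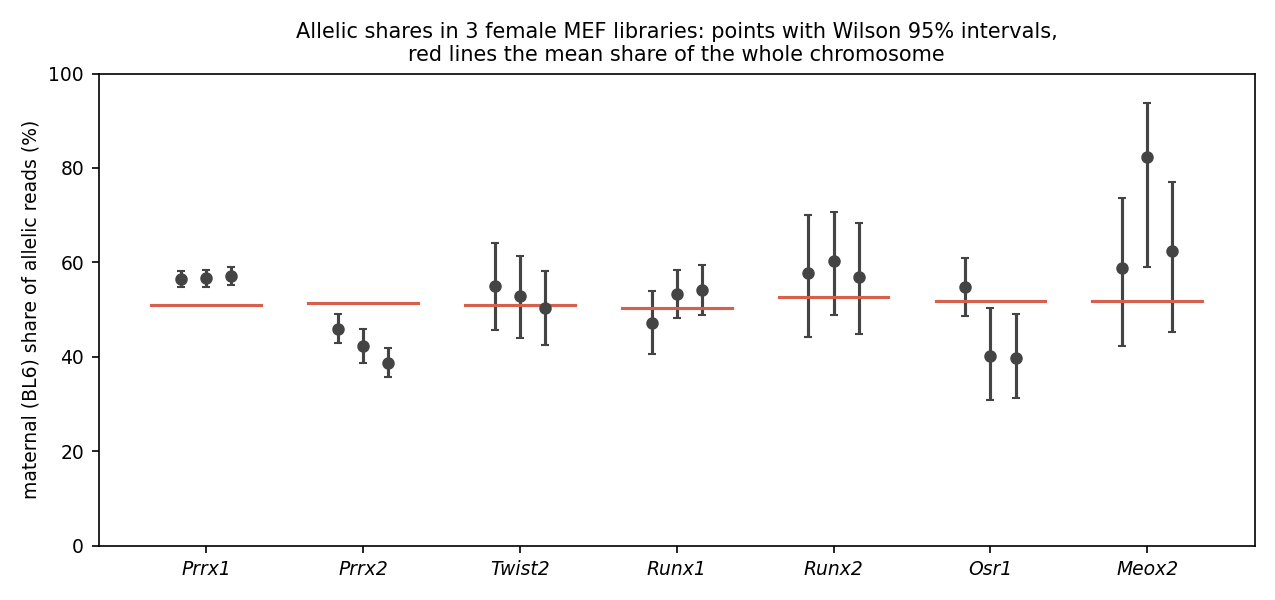
Maternal (BL6) share of allelic reads in each of 3 female MEF libraries, points with 95% Wilson intervals, with the mean share of all genes on the same chromosome as a red line. Prrx1 lies above its line and Prrx2 below it in all 3 libraries; Meox2, with 17 to 34 allelic reads a library, has the widest intervals.

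In pluripotent cells only Prrx2 and Runx1 had 5 or more allelic reads in more than 1 library of a group. Runx1 in M KSR3 was expressed from both alleles, at 44.7, 57.1 and 54.5% maternal in the 3 libraries and 52.1 ± 6.6% (SD, n = 3) on average, beside 51.6 ± 3.8% in MEFs. In M KSR5 it was at 57.4 ± 8.5% (SD, n = 3; 9 to 12 allelic reads). Prrx2 in M KSR3 was at 78.2 ± 12.1% maternal (SD, n = 3), and its pooled 37 of 47 allelic reads gave 78.7% (95% Wilson interval 65.1 to 88.0%). In TX 2i ESCs 22 of 30 reads were maternal, or 73.3% (55.6 to 85.8%). The intervals of M KSR3 and TX 2i ESCs, and that of M KSR5 with all replicates (47.9 to 75.6%), lay above the 42.3% of MEFs, whereas those of F KSR2 (41.2 to 69.1%) and F KSR4 (39.7 to 65.6%) included it. M KSR5 without replicate 3 had 9 of 18 maternal reads, or 50.0% (29.0 to 71.0%), which includes it too. Pooled intervals leave out the spread between libraries. Taken singly, M KSR3 replicate 3 (38.8 to 83.7%) and TX 2i ESC replicates 1 (39.7 to 89.2%) and 2 (38.8 to 83.7%) also included 42.3%. The remaining libraries of both groups did not. Single libraries varied widely, and in F KSR4, with 6 to 34 allelic reads each, they ran from 0 to 64.7%. Chromosome 2 as a whole was at 51.8 to 52.8% in these groups. Prrx1 in M KSR5 replicate 3 had 7 allelic reads, 2 of them maternal, or 28.6% (95% Wilson interval 8.2 to 64.1%). Chromosome 1, which holds Prrx1 and Twist2, was at 68.0 ± 0.1% maternal in M KSR3 and at 51.6 to 52.0% in the means of the other lines. With 0 to 3 reads of either gene in M KSR3, no effect of that imbalance could be read.

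Related genes were followed by list, in the pluripotent mean against MEFs, where 32.5% of all genes tested were called lower and 42.1% higher. Genes such as Shox2, at most -0.48 log2 RPM in pluripotent libraries, passed the filter on low values through MEFs alone. Counts and medians of the lists are therefore a description and not evidence in themselves. Of 17 paralogs and partners 13 fell, 1 rose and 3 did not pass, with a median log2 change of -2.56, beside 0.21 for all genes tested. Shox2, a homeobox relative of the Prrx genes, fell by 6.45 (SE 0.56, limma adjusted p = 1.39e-08) and Id3, an inhibitor of helix-loop-helix factors, by 4.47 (SE 0.75, limma adjusted p = 3.65e-05). The E protein gene Tcf3 differed by 0.06 (SE 0.13, limma adjusted p = 0.697). Tle3, a co-repressor that Runx factors recruit, rose by 1.25 (SE 0.26, limma adjusted p = 0.000347).

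Of 30 other mesenchymal transcription factors 28 were tested, of which 26 fell and 2 rose, with a median log2 change of -5.56, against the same shares of all genes. Here too, genes such as Tbx5, at most -1.85 log2 RPM in pluripotent libraries, passed the filter through MEFs alone and could only fall. Tbx5, the forelimb T-box factor, fell by 7.53 (SE 0.47, limma adjusted p = 1.78e-10) and had at most 5 reads in a pluripotent library. Foxc2 fell by 7.43 (SE 0.66, limma adjusted p = 1.58e-08). Klf2, which also belongs to the pluripotency network, rose by 2.59 (SE 0.27, limma adjusted p = 1.53e-07). Of 10 genes known as targets of the 7 in bone, cartilage or matrix, 8 were tested, of which 7 fell and 1 rose, with a median of -9.07. Tnc, the matrix protein tenascin C, fell by 11.30 (SE 1.28, limma adjusted p = 3.85e-07) and the collagen gene Col1a2 fell by 10.57 (SE 0.94, limma adjusted p = 1.6e-08). Spp1, osteopontin, fell by 1.42 only (SE 0.30, limma adjusted p = 0.000321) and stayed at 8.38 ± 0.76 log2 RPM (SD, n = 15). Alpl, alkaline phosphatase, which marks osteoblasts and pluripotent cells alike, rose by 5.99 (SE 0.20, limma adjusted p = 4.89e-14).

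The genes whose log2 values were most like the mean of the 7 over the 18 libraries were Ltbp2, Angpt4, Rnf150, Abi3bp and Aspn, with Pearson's r of 0.991, 0.991, 0.990, 0.989 and 0.989 across 14625 genes. All libraries share the division into MEFs and pluripotent cells, so r is high for many genes and is given as a description. Over the 15 pluripotent libraries alone, the most alike were Bgn, Timp2 and Lox, with r of 0.856, 0.850 and 0.829. Bgn is the proteoglycan biglycan and Timp2 an inhibitor of matrix metalloproteases. Each of the genes named here had its highest pluripotent value in M KSR5 replicate 3, and likeness without that library was not computed.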

How the data were processed

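RNA-seq of 18 libraries in 6 groups was used, as strand-specific polyA libraries of 3 biological replicates each. The authors trimmed reads with Trim Galore 0.6.1, aligned them to GRCm38 with HISAT2 2.1.0 (versions from the submitters' processing notes), counted them on genes in SeqMonk and deposited log2 RPM, for all reads and for reads of either allele. Values of 18 further columns were not used. The paper calls the deposited values RPKM, but they carry no gene length. Undoing the log gave numbers that were whole for 99.97 to 100% of values, with a tolerance of 0.05 read. Low numbers of the 7 genes in pluripotent libraries were mostly odd, so a unit may not be an independent read. The reason was not tested.

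The main test was limma 3.58.1 in R 4.3.3 with an intensity trend, for genes above a log2 value of 0 in at least 3 libraries, at a Benjamini-Hochberg adjusted p of 0.05. It was also run on simulated counts with the same dispersion for all genes, a simpler setting than these data, and no result here rests on that run. The fit of 18 libraries had a mean per group, and the fit of female against male lines used 12 libraries. Pairs of lines were added after seeing the data. A count of 0 was given a floor of 3 reads over a group, single shares a 95% Wilson interval (at least 5 allelic reads), and pooled levels an exact Poisson interval. Intervals cover counting error only, and p-values measure only the spread between these samples, which may be technical. If recovered reads are not independent, the intervals are too narrow and the folds from the floor may be too high. Python 3.11.15 with numpy 2.4.6, pandas 2.3.3, scipy 1.17.1 and matplotlib 3.10.9 served for the other steps.

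The 7 genes, the lists of related genes and the markers of fibroblasts, pluripotent cells, primitive endoderm and other cell types were chosen with earlier results of these data known. Named from a list were the 2 largest decreases and the 2 largest increases or smallest decreases; Pdgfra, Gata6 and Gata4, and the markers of M KSR5 replicate 3, were named after their values had been seen. One gene that the rule would name is not reported here. Alternatives were log2(RPM + 1), no filter, a filter at 1, limma-voom on the recovered reads, median ratio scaling, each library left out (with the same genes tested), a replicate block, the line as a random effect, MEFs and KSR-iPSCs without TX 2i ESCs, silencing relative to the lowest MEF library, and at least 20 allelic reads. Whether replicate numbers pair the samples was not settled, and the main fit did not pair them. Methylation (IMPLICON) samples of the series were not analysed here.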

Additional observations from a re-analysis of the deposited data

Results flagged for a closer look

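Dixon's test was run on 18 sets of 6 KSR-iPSC libraries of 1 sex (the 7 genes, their median and the fibroblast median) and marked 5, where chance marks about 1 in 20. M KSR5 replicate 3 was the highest male library for Prrx1 (1.74 RPM), for Osr1 (0.405 RPM) and for the median of the 7 genes (2.36% of the MEF level). This library had been set apart beforehand, so these marks are a description. Among female libraries, F KSR2 replicate 3 stood apart for Runx1 (3.16 RPM), and F KSR4 replicate 3 for Osr1 with a single read (0.0676 RPM). All other libraries of the sex had 0 Osr1 reads in both cases, so any read had to be marked, and the number of marks cannot be set against the chance rate.

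Group differences that passed limma were those of Runx1 between female and male KSR-iPSCs (-2.41 on the log2 scale), F KSR2 and M KSR3 (-3.10), F KSR4 and M KSR3 (-3.93), and KSR-iPSCs and TX 2i ESCs (2.47). For Twist2 they were those between F KSR2 and F KSR4 (-2.24), F KSR2 and M KSR5 (-1.92), F KSR4 and M KSR3 (1.65), and KSR-iPSCs and TX 2i ESCs (1.16), all on at most 5 reads a library.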

How the results depend on the processing

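All 7 genes remained lower than MEFs in the pluripotent mean, and in all 35 comparisons of a gene with a group, under every alternative run, each left-out library included. The log2 change of Prrx1 ran from -12.12 to -8.39 and that of Meox2 from -6.29 to -2.75, both weakest with log2(RPM + 1). Median ratio scaling moved the median change of all genes from 0.21 to 0.03. Between KSR-iPSCs and TX 2i ESCs, 2 genes were called, 1 with log2(RPM + 1), without a filter or with limma-voom, and 1 to 2 with a library left out. Between female and male KSR-iPSCs, 1 gene was called, 0 without a filter, with limma-voom or with the line as a random effect, and 0 to 1 with a library left out. Runx1 kept its direction there (-2.77 to -1.59). The 7 libraries whose loss ended the call were F KSR2 replicates 1 and 2, F KSR4 replicates 1 and 2 and M KSR3 replicates 1, 2 and 3. Over the pairs of lines, 5 calls became 3 with log2(RPM + 1), 2 without a filter, 3 with limma-voom, and 3 to 6 with a library left out. The cause was not tested. With the replicate block, 7, 35, 2, 1 and 5 calls were made in these comparisons. Same-numbered samples correlated at -0.20 to 0.38 in their deviations (median 0.04), and other samples at -0.43 to 0.34 (median -0.01). Of 18 libraries 9 correlated best with their own number. These overlapping values do not settle whether the numbers pair the samples. The median silencing over 15 libraries was 0.319% of MEFs, 0.347% against the lowest MEF library, 0.273% after median ratio scaling and 0.235% without M KSR5 replicate 3. With at least 20 allelic reads, 11 of 16 mean allelic shares could still be given. Depth limits Osr1, Runx2, Twist2, Meox2 and Prrx1 in pluripotent cells, where most libraries held 0 to 5 reads.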

Other observations

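Markers of cell types not described above were also compared between the pluripotent mean and MEFs, where 32.5% of all genes tested were called lower and 42.1% higher. All 3 chondrocyte markers fell, as did the only osteoblast marker tested of 3 (Sp7), the only muscle marker tested of 4, and both blood markers tested of 5. Of 4 endothelial markers 2 rose, 1 fell and 1 did not pass, and of 5 primitive endoderm markers 3 rose, 1 fell and 1 did not pass. Both mesoderm markers tested of 4 rose, and of 2 neural crest markers 1 rose and 1 fell. The blood marker Ptprc, without a read in the 15 pluripotent libraries, passed the filter through MEFs alone. Sox17, without a read in MEFs, passed it through pluripotent cells alone. These counts are therefore a description.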
